A study of Mus musculus with 27 samples.

Results

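Irradiated and non-irradiated mouse macrophages were compared in the LPS state. The cells were bone marrow-derived macrophages, that is, macrophages grown in culture from marrow precursors of C57BL/6 mice with the growth factor CSF-1. Marrow cells were exposed to a proton beam at 5 Gy, delivered either as FLASH (at an ultra-high dose rate) or as a standard beam, or were left non-irradiated. All cells then received CSF-1 at 10 ng/ml for 7 days and afterwards 2 days of LPS at 100 ng/ml (labelled M1), IL-4 at 20 ng/ml (M2) or control medium (M0). Irradiation therefore came before differentiation, and every library compared here came from cells that had been given LPS according to their expression values or their label. The series holds 27 bulk RNA-seq libraries, 3 in each of 9 labelled groups.

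The 9 libraries compared were chosen from expression values and not from labels alone. The state of each of the 18 irradiated libraries was read from 2 genes. A library was taken as LPS state if Irg1, the enzyme that makes itaconate in LPS-treated macrophages, reached 500 CPM (read counts scaled to library size), as IL-4 state if Arg1, the arginase induced by IL-4, reached 100 CPM, and as control state otherwise. This gave 6 LPS-state irradiated libraries, 3 FLASH and 3 standard, which were compared with the 3 libraries labelled non-irradiated M1. Of the 6, 4 were labelled M1 (replicates 2 and 3 of each arm) and 2 were labelled M2 (replicate 1 of each arm). In all, 5 of the 18 irradiated libraries, every one a replicate 1, had values at odds with their label. The library labelled FLASH M1 replicate 1 read as control state and the library labelled standard M1 replicate 1 read as IL-4 state, so neither entered the comparison.

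No irradiated library lay near either limit. Irg1 lay between 1282 and 1715 CPM in the 6 LPS-state irradiated libraries, and the highest value among the other irradiated libraries was 30.91 CPM. The non-irradiated M1 libraries lay between 1640 and 2368 CPM. Arg1 lay between 6.336 and 12.22 CPM in the 9 libraries and was at least 631 CPM in the IL-4 state irradiated libraries. Irg1 and Arg1 chose the libraries and were not tested. Results are also given for the 4 irradiated libraries where label and values concur, and for labels alone.

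**Figure D1:**
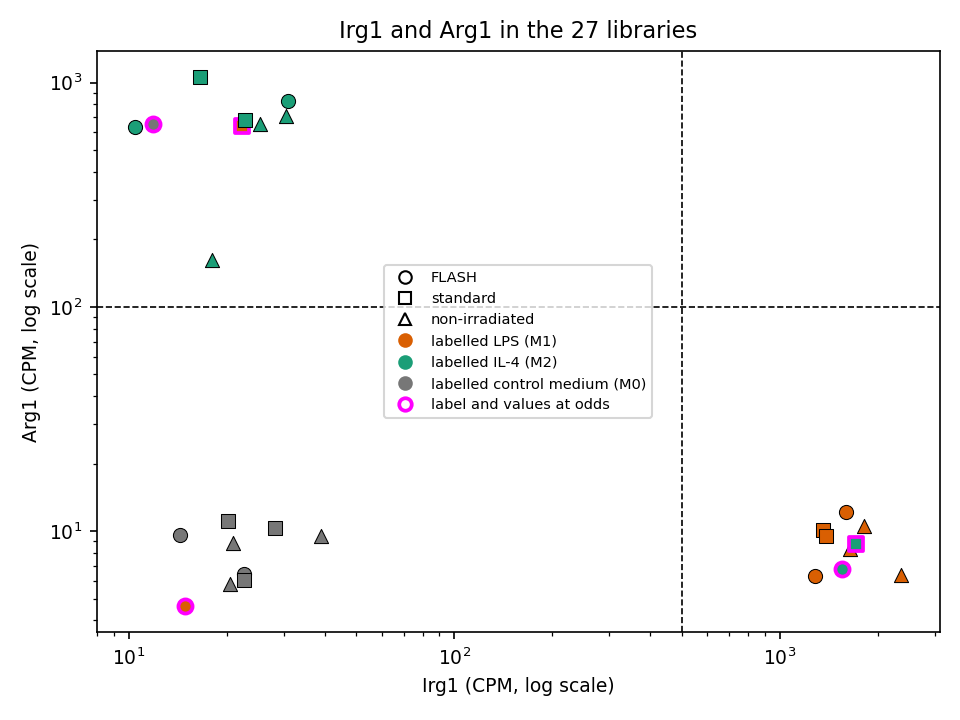
Irg1 against Arg1 in CPM (both axes on a log scale) for the 27 libraries, with the marker shape giving the irradiation arm, the fill the labelled state and a magenta edge the libraries whose label and values are at odds. The dashed lines mark 500 CPM of Irg1 and 100 CPM of Arg1; the 6 irradiated libraries to the right of the vertical line lie at 1282 to 1715 CPM of Irg1, and 2 of them carry an M2 label.

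Ionizing radiation breaks DNA and activates the transcription factor p53, which induces the cell cycle inhibitor p21 (encoded by Cdkn1a) among other targets. LPS, a bacterial cell wall component sensed by TLR4, drives macrophages to make inflammatory cytokines and, through type I interferon, a set of interferon-stimulated genes. Marrow cultures grown with CSF-1 consist mostly of macrophages but can retain other blood lineages, whose precursors differ in how they tolerate radiation. Gzmb encodes granzyme B, a protease of cytotoxic lymphocyte granules.

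The promoters of 3 genes are shown because these genes belong to the groups of changed genes described below: Cdkn1a rose, and H2-Aa (an MHC class II chain) and Rsad2 (the interferon-induced antiviral protein viperin) fell. Each run is the 250 bases before a RefSeq start site (build GRCm38.p6), 5′ to 3′ on the gene's strand, and capitals mark the match to a motif searched on both strands. For Cdkn1a (chr17:29090729-29090978, plus strand, 1 of 2 start sites) the motif was CATG, any 6 bases and CATG again, a spaced pair as found in p53 sites, which was chosen after this sequence was seen. For H2-Aa (chr17:34287824-34288073, minus strand) it was CTGATTGG, the Y box of class II promoters. For Rsad2 (chr12:26456453-26456702, minus strand) it was GAAA, any 2 bases and GAAA again, the core of interferon-stimulated response elements.
Cdkn1a: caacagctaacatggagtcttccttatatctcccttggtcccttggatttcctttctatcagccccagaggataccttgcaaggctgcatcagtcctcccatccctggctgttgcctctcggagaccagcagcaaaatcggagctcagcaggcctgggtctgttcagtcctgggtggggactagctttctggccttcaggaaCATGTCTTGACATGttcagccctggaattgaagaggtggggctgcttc
H2-Aa: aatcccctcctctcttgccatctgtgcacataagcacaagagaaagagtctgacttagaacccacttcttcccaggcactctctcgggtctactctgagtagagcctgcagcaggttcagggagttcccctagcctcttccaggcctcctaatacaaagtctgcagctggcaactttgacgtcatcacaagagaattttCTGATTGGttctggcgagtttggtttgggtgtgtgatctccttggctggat
Rsad2: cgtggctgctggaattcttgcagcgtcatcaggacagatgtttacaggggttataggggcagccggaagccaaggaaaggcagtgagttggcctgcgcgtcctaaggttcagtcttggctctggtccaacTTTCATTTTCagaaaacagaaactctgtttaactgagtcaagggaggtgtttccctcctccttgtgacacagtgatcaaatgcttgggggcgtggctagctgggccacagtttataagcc

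The match began 48 bases before the start site shown in Cdkn1a, 51 in H2-Aa and 120 in Rsad2. The window before the other Cdkn1a start site held no match. The GAAA pair was found before 14 of the 25 interferon-stimulated genes that have a window (56%) and before 936 of all 27025 genes with a window (3.46%). CTGATTGG was found before 4 of 10 MHC class II genes (40%) and 4.43% of all genes. The CATG pair was found before 1 of 27 p53 targets, Cdkn1a itself (3.7%), and 0.57% of all genes. A match is a description of these letters only.

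The libraries were of like depth as estimated from the CPM values. Estimated assigned reads came to 22.28 M to 25.02 M (M, mega) in the irradiated libraries and 22.61 M to 24 M in the non-irradiated ones. The smallest CPM value shared by many genes of a library was taken as 1 read. After the authors' scaling the CPM summed to 949950.3 to 1009728.3 in irradiated libraries. In non-irradiated libraries the sums were 1018387 to 1063146.6, without overlap. Macrophage genes were abundant in all 9: Cd68, a lysosomal glycoprotein typical of macrophages and named here only as a check of cell type, ran from 742.6 to 885.6 CPM in irradiated libraries and from 873.5 to 965.9 CPM in non-irradiated ones. Mitochondrially encoded genes took 0.7706% to 0.9126% of irradiated libraries and 0.4673% to 0.5337% of non-irradiated libraries, without overlap; the part of this difference in the results below was not tested. Nothing in the sources says that replicates were separate cultures or animals, so p-values measure only the spread between these libraries.

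Of 13295 genes tested with limma on log2(CPM + 0.5), 772 were higher in irradiated macrophages (5.81%) and 1108 were lower (8.33%), 1880 in all (14.1%), at a Benjamini-Hochberg adjusted p below 0.05. The median log2 fold change over all genes tested was -0.004. Counts of list members called in this comparison are to be read beside the 5.81% higher and 8.33% lower among all genes. In 2423 genes (18.2%) the 6 irradiated and the 3 non-irradiated libraries did not overlap. Leaving out non-irradiated replicate 1 lowered the count to 1125 and leaving out non-irradiated replicate 3 lowered it to 1217. In the 4 irradiated libraries where label and values concur, 485 genes were higher (3.65%) and 812 lower (6.11%), 1297 in all (9.76%), of which 1222 were called in the same direction in the comparison of 6 with 3, and the count was 755 without non-irradiated replicate 1. All fold changes below are log2 values with 0.5 CPM added, so the change of a gene near 0 comes out too small, and "called" means past this threshold.

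**Figure D2:**
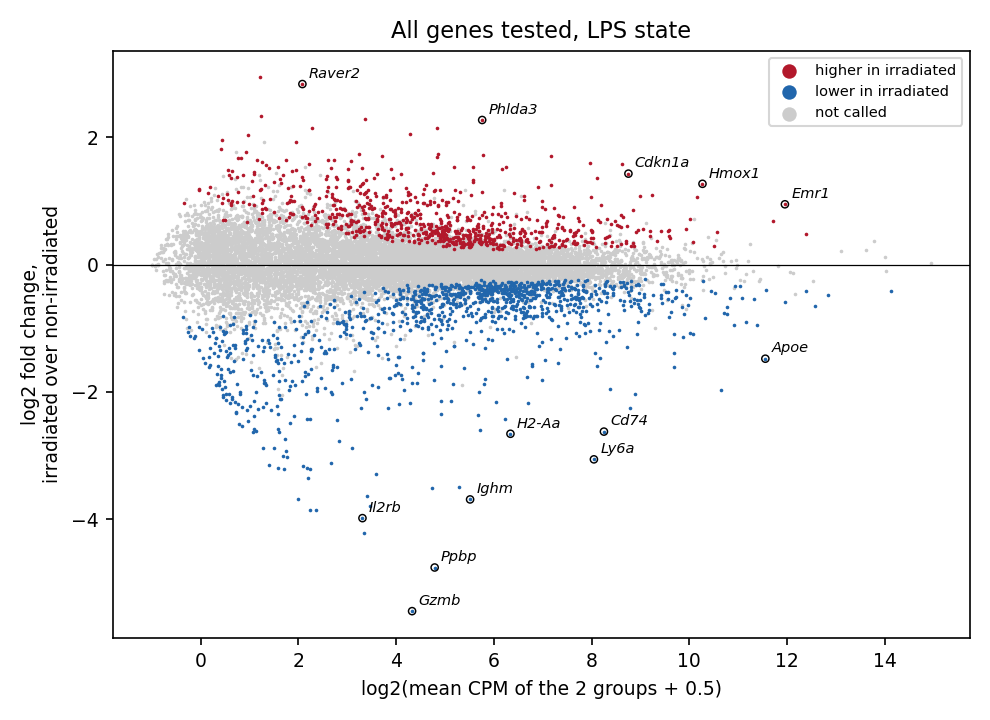
Log2 fold change of irradiated over non-irradiated libraries (vertical) against the log2 mean level (horizontal) for the 13295 genes tested in the LPS state, with 772 genes called higher in red, 1108 called lower in blue and the rest in grey. Among the named genes Gzmb is lowest at -5.45 and Raver2 highest at 2.84.

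Targets of p53 were raised in the irradiated macrophages. Of 37 p53 targets tested, 16 rose and 1 fell, and their median log2 fold change was 0.46. Cdkn1a had 516.6, 633.8 and 671.7 CPM in the FLASH libraries and 554.1, 771.2 and 639 CPM in the standard libraries, against 224.9, 228 and 243.4 CPM in the non-irradiated libraries. Every irradiated library was above every non-irradiated one, and the log2 fold change was 1.43 ± 0.11 (SE; limma adjusted p = 2.117e-05). An exact permutation test of 6 against 3 libraries gave a two-sided p of 0.0119 for Cdkn1a, the smallest it can give. Cdkn1a was chosen with earlier results of these data known, so this p is no independent evidence.

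Phlda3, a p53-induced inhibitor of Akt, rose most among the p53 targets. It had 83.02, 71.7 and 91.89 CPM in FLASH libraries and 95.99, 108.6 and 85.56 CPM in standard libraries, against 16.9, 20.49 and 16.72 CPM in non-irradiated libraries, a log2 fold change of 2.27 ± 0.12 (SE; limma adjusted p = 2.003e-06). Ccng1 (cyclin G1) had a median of 355.7 CPM (311.2 to 398.7) in irradiated libraries against 209.8, 209 and 246.2 CPM in non-irradiated libraries, and rose by 0.67. Psrc1, a spindle protein, had a median of 8.306 CPM (5.449 to 13.29) in irradiated libraries against 2.56, 2.206 and 2.337 CPM in non-irradiated libraries, and rose by 1.65. Gtse1, a mitotic protein that also restrains p53, rose by 1.51, with 12.22 CPM (6.659 to 14.15) against 3.305, 2.461 and 5.482 CPM. In these 3 genes too the groups did not overlap.

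Other p53 targets were less certain. Mdm2, the ubiquitin ligase that degrades p53, had a median of 322 CPM (222.2 to 357.8) in irradiated libraries against 229.3, 189.3 and 194.9 CPM in non-irradiated libraries. Its groups overlapped, its log2 fold change was 0.54 (limma adjusted p = 0.0428), and its call was lost in 7 of 9 fits that left out 1 library and where label and values concur (0.41, limma adjusted p = 0.131). Gdf15, a stress cytokine, had a median of 51.74 CPM (15.08 to 68.55) against 17.04, 5.855 and 14.34 CPM, with a log2 fold change of 1.68 (limma adjusted p = 0.04598) that was likewise lost in 7 of 9 such fits. The 2 lowest irradiated values of Gdf15, 18.04 and 15.08 CPM, were replicate 2 of the FLASH and of the standard arm. Apaf1, the apoptosome scaffold, was the member that fell, by 0.32, and its call was lost in 3 of 9 such fits. Trp53, which encodes p53 itself, did not pass the test (0.21, limma adjusted p = 0.09989), nor did any of the 10 genes of the list of p53 regulators.

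**Figure D3:**
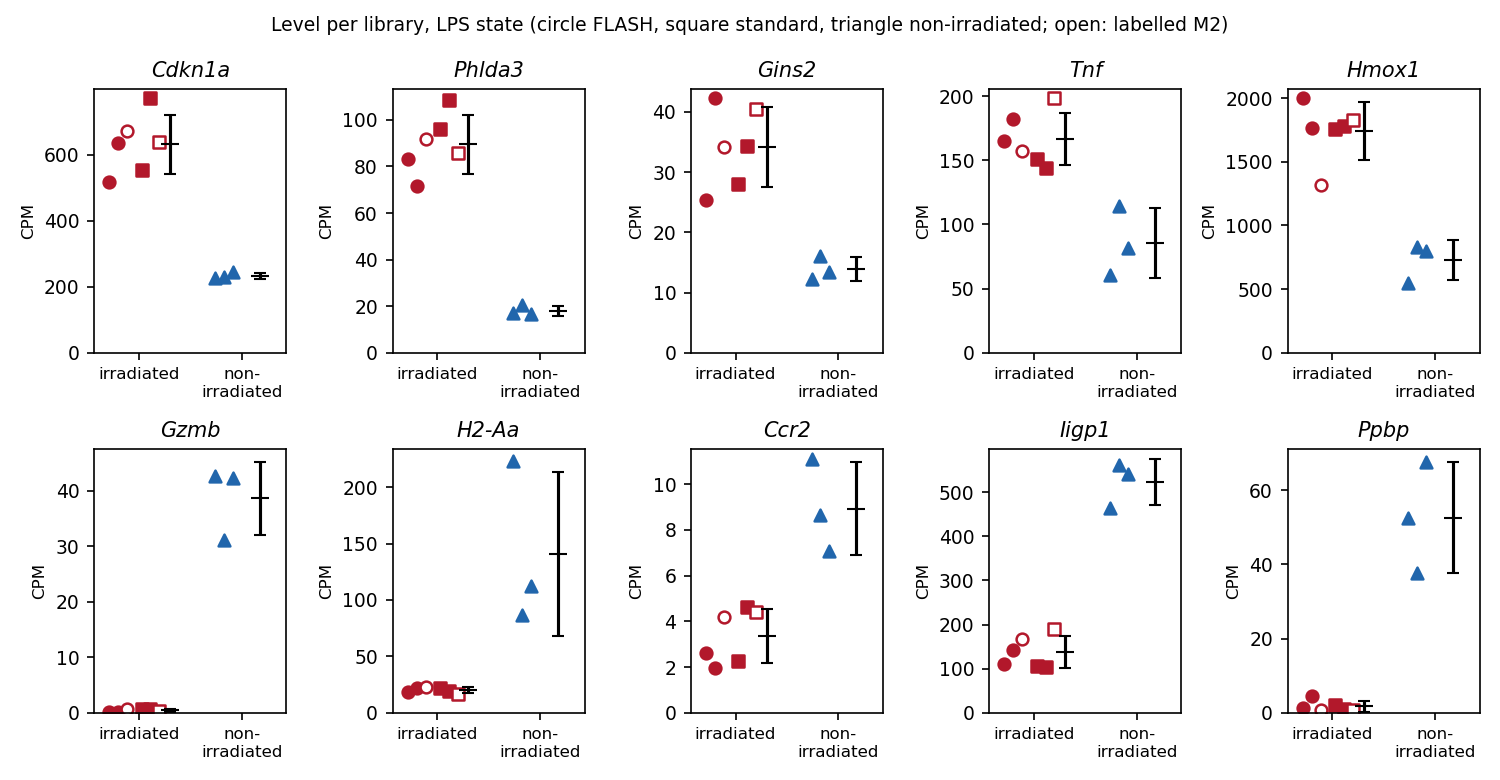
CPM of 10 genes in each LPS-state library, with irradiated libraries in red (circles FLASH, squares standard, open symbols labelled M2) to the left of non-irradiated libraries in blue triangles; black bars give mean ± SD of the 6 and the 3 libraries, and each vertical axis starts at 0. The 6 irradiated libraries lie above the 3 others for Cdkn1a, Phlda3, Gins2, Tnf and Hmox1 and below them for Gzmb, H2-Aa, Ccr2, Iigp1 and Ppbp, and the libraries labelled M2 lie among the other irradiated ones for most of these genes.

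DNA replication genes were higher in the irradiated macrophages although Cdkn1a, an inhibitor of the cell cycle, was too. Of 27 replication genes, 14 rose and none fell, with a median of 0.64. Gins2, a subunit of the replicative helicase, had a median of 34.28 CPM (25.43 to 42.3) in irradiated libraries against 12.24, 16.12 and 13.35 CPM in non-irradiated ones, and rose by 1.25 ± 0.16 (SE; limma adjusted p = 0.000474). Lig1, the ligase that joins Okazaki fragments, rose by 0.99, with 46.49 CPM (27.44 to 55.01) against 23.97, 20.45 and 20.36 CPM. E2f1, which activates S-phase genes, rose by 0.56, with 58.16 CPM (52.75 to 63.93) against 41.66, 33.26 and 43.36 CPM. None of these 3 genes overlapped between groups. The count fell to 6 without non-irradiated replicate 1 and to 7 without non-irradiated replicate 3, and was 6 where label and values concur.

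Mitosis genes gave less. Of 25, 4 passed the test and all 4 were higher, with a median of 0.51, but none did where label and values concur or without non-irradiated replicate 2. Mki67, the proliferation marker Ki-67, had 24.74, 48.07 and 40.59 CPM in FLASH libraries and 21.78, 45.5 and 43.24 CPM in standard libraries, against 29.98, 27.03 and 27.95 CPM in non-irradiated libraries. Replicate 2 of each arm lay below all non-irradiated libraries and the other 4 irradiated libraries lay above them, and the difference did not pass (0.33, limma adjusted p = 0.4105). Prc1, which bundles spindle microtubules, was called at 1.10, a call lost without non-irradiated replicate 2 or without non-irradiated replicate 3. Nusap1, another spindle protein, was called at 1.07 and lost its call without non-irradiated replicate 1 or without non-irradiated replicate 2.

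Of 28 DNA repair genes 4 rose (14.3%, against 5.81% of all genes) and 1 fell (3.57%, below the 8.33% of all genes). Over the fits that left out 1 library 1 to 6 rose. Parp1, which senses strand breaks, rose by 0.55, with 112.7 CPM (94.52 to 136.1) against 75.09, 68.48 and 87.27 CPM. Cdkn1b, the inhibitor p27, fell by 0.83, to 15.42 CPM (14.5 to 18.28) in irradiated libraries against 27.51, 22.83 and 36.53 CPM. In the list of senescence and secretory genes, which holds Cdkn1b and Gdf15, 1 of 21 was higher (4.76%, below the 5.81% of all genes). In that list 3 were lower (14.3%, against 8.33% of all genes). Over the fits that left out 1 library 0 to 3 were higher and 1 to 2 lower.

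Antioxidant genes under the transcription factor NRF2 were mostly higher where they changed, with 11 of 30 up and 1 down and a median of 0.23. Hmox1, which degrades heme, had a median of 1773 CPM (1321 to 2000) in irradiated libraries against 550.1, 833.8 and 801 CPM in non-irradiated libraries, and rose by 1.27 ± 0.15 (SE; limma adjusted p = 0.0002601). Cat (catalase) rose by 0.79, with 202.6 CPM (180.1 to 218.8) against 122.3, 98.73 and 129.3 CPM. Gclc, the rate-limiting enzyme of glutathione synthesis, rose by 0.61, with 39.17 CPM (31.82 to 41.98) against 24.63, 24.02 and 25.66 CPM. Keap1, the inhibitor of NRF2, was the member that fell, by 0.43, to 115.6 CPM (104.3 to 128.1) against 154.6, 162.5 and 155.3 CPM. The groups did not overlap in these 4 genes, and 6 members of the list rose without non-irradiated replicate 1 and 7 without non-irradiated replicate 2. All 13 mitochondrially encoded genes rose, by 0.4 to 0.83, with no overlap in any of them.

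**Figure D4:**
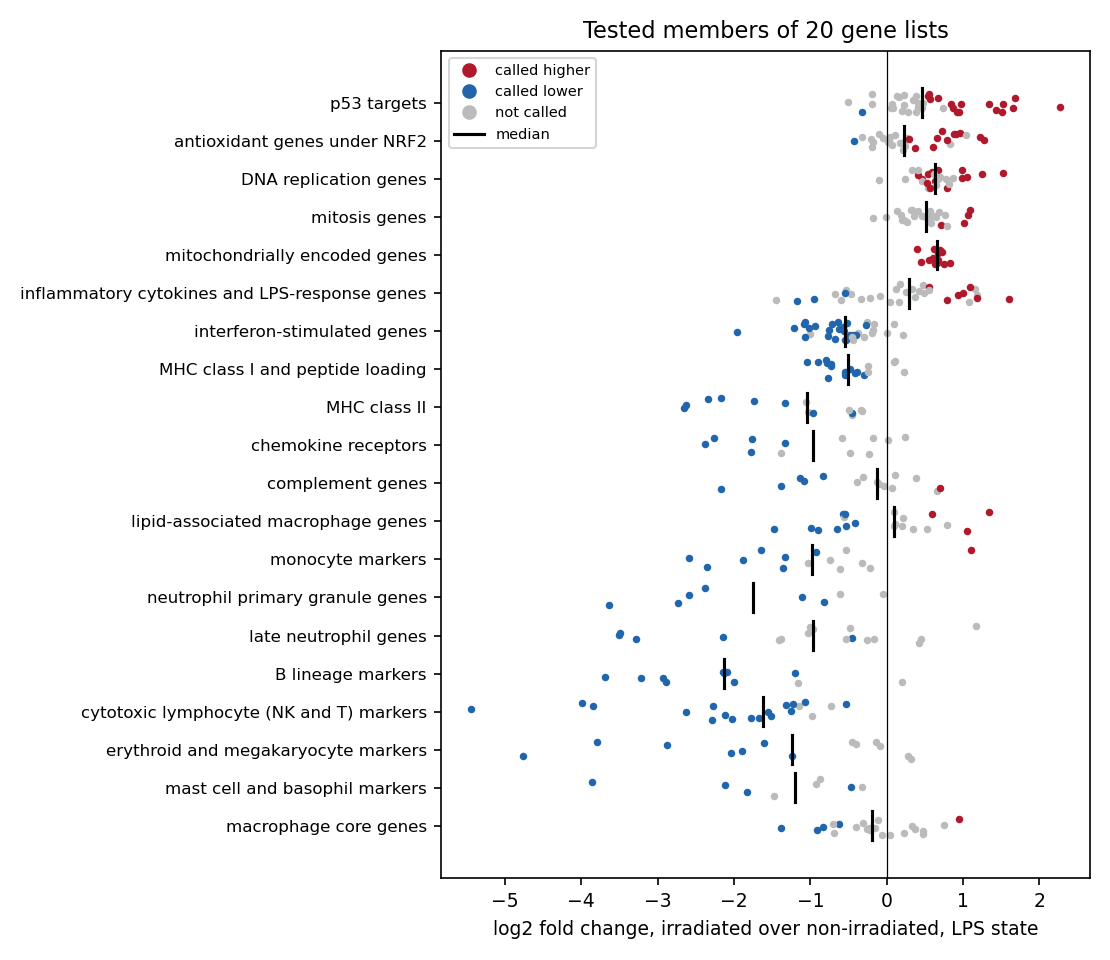
Log2 fold change, irradiated over non-irradiated in the LPS state, of each tested member of 20 gene lists (rows), with called members in red (higher) or blue (lower), other members in grey and the list median as a black bar. The medians run from 0.66 for the mitochondrially encoded genes to -2.13 for the B lineage markers, beside -0.004 over all genes, and in several lineage lists part of the members passed the filter on low values only through the non-irradiated libraries.

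Genes of the inflammatory response to LPS were described next. The libraries were chosen by Irg1, a gene of that response, so its other genes are described and give no independent evidence. Of 32 inflammatory and LPS-response genes, 7 were higher (21.9%, against 5.81% of all genes) and 3 lower (9.38%, against 8.33% of all genes), with a median of 0.29. Where label and values concur 4 were higher, and without non-irradiated replicate 1 the counts were 5 higher and 1 lower. Tnf had 165.2, 182.2 and 157.6 CPM in FLASH libraries and 151.1, 144.2 and 198.5 CPM in standard libraries, against 60.28, 114.3 and 81.34 CPM in non-irradiated libraries, a log2 fold change of 1 ± 0.17 (SE; limma adjusted p = 0.002655). Il1a, the alarmin interleukin-1α, had a median of 355.4 CPM (296.1 to 453.6) against 79.84, 239.1 and 88.53 CPM, a log2 fold change of 1.60 ± 0.30 (SE; limma adjusted p = 0.004697). In both cytokines all irradiated libraries were above all non-irradiated ones. Nfkbiz, a nuclear co-activator of NF-κB targets, was higher by 0.79 and Ptges, which makes prostaglandin E2, by 0.93.

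Other genes of the response did not follow Tnf. Il1b had a median of 188.4 CPM (148.1 to 245.5) in irradiated libraries against 127.2, 227.2 and 111.6 CPM in non-irradiated ones and overlapped (0.37, limma adjusted p = 0.3035). Il6 was low in all, at 3.074 CPM (1.488 to 4.96) against 0.3259, 2.715 and 0.9437 CPM (1.16, limma adjusted p = 0.09745). Nos2, the inducible nitric oxide synthase, had 20.26, 75.21 and 76.9 CPM in FLASH libraries and 16.86, 27.97 and 85.56 CPM in standard libraries, against 65.64, 185.9 and 117.7 CPM in non-irradiated libraries. Its groups overlapped and its log2 fold change of -1.45 did not pass (limma adjusted p = 0.1101), though it did where label and values concur (-1.93, limma adjusted p = 0.04592). Saa3, an acute-phase protein made by macrophages, was lower by 0.96, with 1786 CPM (1432 to 2337) against 3651, 2756 and 4235 CPM.

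Interferon-stimulated genes fell. Of 34 tested, 22 fell and none rose, with a median of -0.54. Rsad2, whose promoter is shown above, had 1118, 1563 and 1372 CPM in FLASH libraries and 1189, 1069 and 1615 CPM in standard libraries, against 2270, 3031 and 2290 CPM in non-irradiated libraries, and fell by 0.94 (SE 0.15; limma adjusted p = 0.001687). Iigp1, an immunity-related GTPase, had a median of 126.6 CPM (104.4 to 190.9) in irradiated libraries against 464.6, 561.9 and 541.8 CPM, and fell by 1.96. Oasl1, which blocks translation of the messenger RNA of Irf7 and so limits interferon production, fell by 1.08, to 310.1 CPM (284.6 to 359.3) against 673.7, 686.8 and 629.3 CPM. Ifi47, another immunity-related GTPase, fell by 1.02, to 188.6 CPM (156.8 to 213.1) against 360.2, 395.2 and 378.5 CPM. In each of these 4 genes all irradiated libraries were below all non-irradiated ones, and 21 members fell where label and values concur.

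The 3 ligands of the receptor CXCR3, which are induced by interferon, went apart. Cxcl10 had a median of 152.3 CPM (99.7 to 207.6) in irradiated libraries against 289.7, 481.2 and 384.2 CPM in non-irradiated libraries and fell by 1.39, a call lost without non-irradiated replicate 2 (limma adjusted p = 0.06205). Cxcl11 fell by 2.19, to 5.041 CPM (2.815 to 9.97) against 23.18, 29.79 and 26.2 CPM. Cxcl9 rose by 1.45 (limma adjusted p = 0.004339), with 40.48, 50.25 and 37.47 CPM in FLASH libraries and 42.52, 19.23 and 46.98 CPM in standard libraries, against 14.24, 16.55 and 10.61 CPM in non-irradiated libraries. None of the 3 overlapped between groups. Of all 23 chemokine ligands tested, 3 rose and 5 fell, and 2 fell without non-irradiated replicate 2.

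Chemokine receptors showed no member called higher and 5 of 12 lower, with a median of -0.96. Ccr2, the receptor that brings monocytes out of marrow, fell by 1.33, to 3.41 CPM (1.976 to 4.606) against 11.08, 8.656 and 7.055 CPM. Ccr9, a gut-homing receptor also found on plasmacytoid dendritic cells, fell by 2.38, to 0.7514 CPM (0.2825 to 1.329) against 7.448, 4.158 and 5.752 CPM. The groups overlapped in neither gene. Of the 12 receptors 1, Ccr9, passed the filter on low values only with non-irradiated libraries counted, so its fall describes the values and supports nothing further. The count was 3 without non-irradiated replicate 3.

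Antigen presentation genes fell in both classes. Of 14 MHC class II genes 8 fell and none rose, with a median of -1.04, 5 of the 14 (3 of them lower) having passed the filter on low values only with non-irradiated libraries counted, and of 18 genes of MHC class I and peptide loading 13 fell and none rose, with a median of -0.51. H2-Aa had 18, 22.3 and 22.72 CPM in FLASH libraries and 22.31, 19.7 and 16.38 CPM in standard libraries, against 223.4, 86.85 and 112.1 CPM in non-irradiated libraries. The irradiated values were low and close together, the non-irradiated values were high and spread, and H2-Aa fell by 2.66 (SE 0.24; limma adjusted p = 7.691e-05). Cd74, the invariant chain, fell by 2.62, to 76.65 CPM (57.06 to 89.77) against 917.5, 301.5 and 378.7 CPM. H2-Ab1, the partner of H2-Aa, fell by 2.17, to 33.19 CPM (28.33 to 41.42) against 292.6, 92.54 and 135 CPM. Ciita, the master activator of class II genes, fell by 1.74, to 1.466 CPM (0.2422 to 2.908) against 7.774, 5.134 and 5.348 CPM, a call lost without non-irradiated replicate 1 (limma adjusted p = 0.07667), where the class II count was 5.

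Class I genes had the median nearer 0. Tap1 and Tap2, which carry peptides into the endoplasmic reticulum, fell by 0.80 and 0.73. Tap1 had 401.8 CPM (353.7 to 443.6) against 660.9, 684.4 and 723.1 CPM, and Tap2 had 174 CPM (155.8 to 199.3) against 279.4, 305.4 and 300.3 CPM. Psmb9, an immunoproteasome subunit, fell by 0.73, to 105 CPM (88.47 to 119.9) against 163, 186 and 168.6 CPM. The groups did not overlap in any of the 3. Reads of the closely related class I genes may have been split between copies by the authors' counting, so single H2 genes of class I are not described.

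Markers of other blood lineages were lower in the irradiated libraries. In bulk RNA fewer cells of a type and less RNA per cell cannot be told apart. Of 32 markers of cytotoxic lymphocytes (NK and T cells), 20 passed the filter on low values (at least 1 CPM in 3 of the 27 libraries), and 17 of these fell and none rose. A marker that passed only through the group where it is high had to differ, so these counts describe the members and support nothing further. Gzmb and 10 others (11 in all) passed only because non-irradiated libraries were counted, and all 11 fell, while 6 fell of the 9 that passed on irradiated libraries alone. Gzmb had 0.1211, 0.121 and 0.6231 CPM in FLASH libraries and 0.6612, 0.725 and 0.3042 CPM in standard libraries, against 42.69, 31.1 and 42.33 CPM in non-irradiated libraries. The irradiated libraries were near 0, and Gzmb fell by 5.45 (SE 0.28; limma adjusted p = 1.514e-06), the lowest value among the named genes. The exact permutation test gave Gzmb a two-sided p of 0.0119, again the smallest it can give. Gzmb was chosen with earlier results of these data known and passed the filter through non-irradiated libraries, so neither p-value is independent evidence.

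The other granzymes and receptors of that list varied. Gzmc, granzyme C, had a median of 0.1282 CPM (0.04036 to 0.4691) in irradiated libraries against 9.171, 8.995 and 9.257 CPM in non-irradiated ones and fell by 3.85; granzyme genes are alike in sequence, and how the authors' counting treated shared reads is not known. Il2rb, the β chain of the interleukin-2 receptor, fell by 3.99, to 0.7609 CPM (0.2018 to 1.322) against 19.04, 15.4 and 19.91 CPM. Thy1, a T cell surface protein, had 4.782 CPM (2.825 to 9.555) against 7.914, 15.49 and 15.59 CPM, with overlap, and its log2 fold change of -1.26 lost its call without non-irradiated replicate 2 or 3. The list without Ccl5, its most abundant member, summed to 50.65 to 95.23 CPM in irradiated libraries and 213.2 to 227.1 CPM in non-irradiated libraries. The count fell to 11 without non-irradiated replicate 2 and also without non-irradiated replicate 3.

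The 12 list members under the filter were not tested. In 6 of them all irradiated libraries lay below all non-irradiated ones, and the other 6 overlapped. The share without overlap among all genes under the filter was not computed, and the 18.2% given above covers tested genes only. The values are near 0, so this count describes the members and supports nothing further. Examples picked out after their values were seen follow. Cd3d, a T cell receptor subunit, ranged from 0.08264 to 0.3412 CPM in irradiated libraries and from 0.9334 to 1.663 CPM in non-irradiated ones. Xcl1, a lymphocyte chemokine, ranged from 0 to 0.4132 CPM in irradiated libraries and from 0.9334 to 1.393 CPM in non-irradiated ones. Neither gene overlapped between groups. Prf1 (perforin) was at 0 in 4 of 6 irradiated and 2 of 3 non-irradiated libraries and did not exceed 0.6049 CPM in irradiated libraries or 0.2793 CPM in non-irradiated ones. Cd3e, another T cell receptor subunit, overlapped and ranged from 0.04031 to 0.4264 CPM in irradiated libraries and from 0.2328 to 1.273 CPM in non-irradiated libraries. Ncr1, an NK cell receptor, was at 0 in 4 of the 6 irradiated libraries and ranged from 0.08486 to 0.6291 CPM in the non-irradiated ones. No member of the list was at 0 in all 9 libraries. The part of such cells in the other results was not tested.

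Platelet and megakaryocyte genes were also much lower. Of 13 erythroid and megakaryocyte markers 7 fell and none rose; 4 of the 13, all lower, passed the filter only with non-irradiated libraries counted. Ppbp, a platelet chemokine, had a median of 1.175 CPM (0.6231 to 4.516) in irradiated libraries against 52.56, 37.55 and 67.68 CPM in non-irradiated libraries and fell by 4.76. Itga2b, the platelet integrin αIIb, fell by 3.79, to 0.9638 CPM (0.2985 to 1.694) against 19.04, 17.86 and 23.46 CPM. Gp5, a platelet glycoprotein that is not on the list, fell by 3.69, with 0 CPM in 3 irradiated libraries and at most 0.2893 CPM in the others, against 7.122, 6.746 and 6.741 CPM. None of the 3 overlapped between groups, which for Gp5 the naming rule required. Gp5 also passed the filter only with non-irradiated libraries counted, so its fall describes the values and supports nothing further.

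B lineage and granulocyte genes followed. Of 14 B lineage markers found among the genes 11 were tested, and 9 of these fell and none rose. Of the 11, 5 passed the filter only with non-irradiated libraries counted and all 5 fell, and 4 fell of the other 6. Ighm, the immunoglobulin μ chain, had 6.175, 5.484 and 18.49 CPM in FLASH libraries and 5.909, 5.629 and 1.912 CPM in standard libraries, against 85.42, 91.01 and 72.98 CPM in non-irradiated libraries, and fell by 3.69. Cd79a, a B cell receptor subunit, fell by 3.22, to 0.1039 CPM (0.04132 to 0.2493) against 4.655, 6.449 and 5.078 CPM. Among neutrophil primary granule genes 6 of 8 fell, and among late neutrophil genes 5 of 17 fell, and none rose in either list. Of the 8 primary granule genes 6 passed the filter only with non-irradiated libraries counted, and 5 of those 6 fell. Mpo, myeloperoxidase, had a median of 0.6978 CPM (0.03746 to 4.879) in irradiated libraries against 19.32, 7.213 and 30.38 CPM in non-irradiated libraries and fell by 3.64 (SE 0.62; limma adjusted p = 0.00314). Ngp, a neutrophil granule protein, fell by 3.51, to 2.954 CPM (0.478 to 10.3) against 68.01, 20.58 and 54.64 CPM.

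In the remaining lineages, 3 of 8 mast cell and basophil markers and 4 of 15 dendritic cell markers passed the filter only with non-irradiated libraries counted. Of the 8 mast cell and basophil markers 4 fell, among them Prss34, a basophil protease, by 3.86, to 0.04177 CPM (0.04036 to 0.1613) against 8.147, 4.667 and 12.36 CPM. Of 14 monocyte markers 7 fell and 1 rose. Ly6c2, which marks inflammatory monocytes, fell by 2.36, to 16.04 CPM (11.34 to 22.66) against 95.71, 78.71 and 79 CPM, and S100a4 rose by 1.11, with 31.66 CPM (27.16 to 34.38) against 15.18, 17.4 and 10.83 CPM. Of 15 dendritic cell markers 4 fell (26.7%), and of 13 stromal and osteoblast markers 2 fell (15.4%), against 8.33% of all genes. Of 11 stem and progenitor markers 3 fell (27.3%) and 1 rose (9.09%, against 5.81% of all genes). Without non-irradiated replicate 1, or without non-irradiated replicate 2, 4 monocyte markers fell. Over the fits that left out 1 library, 2 to 3 mast cell and basophil markers, 2 to 5 dendritic cell markers and 0 to 2 stem and progenitor markers fell.

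Of 22 macrophage core genes 1 rose (4.55%, below the 5.81% of all genes) and 4 fell (18.2%, against 8.33%), with a median of -0.19, and 7 fell without non-irradiated replicate 2. Emr1, which encodes the surface marker F4/80, rose by 0.95, with 5092 CPM (4305 to 5964) against 3779, 1605 and 3074 CPM. Irf8, a transcription factor of the macrophage and dendritic lineage, fell by 0.91, to 197.2 CPM (175.5 to 219) against 395.6, 333.4 and 396.7 CPM. Fcgr1, the high-affinity IgG receptor, fell by 0.83 and Mertk, a receptor for dying cells, by 0.63. In these 4 genes the groups did not overlap.

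Complement genes included 5 of 15 that fell and 1 that rose. C4b, a component of the classical pathway, fell by 2.17, to 6.348 CPM (3.781 to 9.596) against 29.37, 33.43 and 31.37 CPM. C1qb, which starts that pathway, fell by 1.08, to 719.4 CPM (484.6 to 847.8) against 1617, 1149 and 1603 CPM. Cfb, of the alternative pathway, fell by 0.83, to 564.7 CPM (434.3 to 633.1) against 963.8, 901.3 and 1077 CPM.

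Lysosomal and lipid-handling genes were mixed. Of 35 lysosome and phagocytosis genes 7 rose (20%, against 5.81% of all genes) and 8 fell (22.9%, against 8.33%). Gusb (β-glucuronidase) rose by 0.85, with 585.6 CPM (527.7 to 683.1) against 346.6, 291.7 and 351.5 CPM, and Fcgr4, an IgG receptor, fell by 1.03, to 259.7 CPM (192.8 to 300.9) against 459, 541.7 and 510.4 CPM. Of 20 lipid-associated macrophage genes 3 rose and 8 fell. Spp1 (osteopontin) had 1529, 1427 and 1416 CPM in FLASH libraries and 1519, 1286 and 1880 CPM in standard libraries, against 419.1, 774.8 and 1153 CPM in non-irradiated libraries, and rose by 1.06. Apoe, the apolipoprotein that carries cholesterol out of cells, had 1491 CPM (807.7 to 2110) against 5365, 2280 and 5786 CPM and a log2 fold change of -1.48, a call lost without non-irradiated replicate 1 or 3. The count of lipid-associated genes that fell was 3 without non-irradiated replicate 1 and 3 where label and values concur.

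Of the glycolysis and hypoxia genes 7 of 23 fell and none rose, a count that was 3 without non-irradiated replicate 1 and 4 without non-irradiated replicate 3. Vegfa, the angiogenic growth factor, fell by 1.88, to 14.49 CPM (11.26 to 18.34) against 64.15, 39.67 and 64.17 CPM. Slc16a3, a lactate exporter, fell by 1.18 and Hk1, hexokinase 1, by 0.64. Among enzymes of lipoxygenase and prostaglandin pathways 5 of 15 fell and 1 rose, with Alox12, a lipoxygenase abundant in platelets, lower by 3.12. Of 23 genes that IL-4 induces 4 fell (17.4%, against 8.33% of all genes). None of 30 ribosomal protein genes passed the limma test, and 12 were lower without non-irradiated replicate 2.

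Of the 12 genes with the highest fold changes under the naming rule, Phlda3 was on one of the lists and the other 11 were on none. Raver2, an RNA-binding protein, had a median of 6.933 CPM (5.363 to 7.83) in irradiated libraries against 1.164, 0.2121 and 0.4044 CPM in non-irradiated libraries and rose by 2.84 (SE 0.26; limma adjusted p = 5.684e-05). Treml4, a myeloid receptor, rose by 2.30, with 17.19 CPM (8.388 to 22.25) against 3.212, 1.485 and 4.539 CPM. Id3, an inhibitor of basic helix-loop-helix factors, rose by 2.06, with 29.5 CPM (19.11 to 47.15) against 4.934, 9.419 and 6.516 CPM, and Smad6, an inhibitor of BMP signalling, by 1.73. The others of these 12 were Rapgef5 (2.15), Tmc3 (2.15), Dnmt3l (1.94), Gpr126 (1.73), Cd300e (1.72), Slc13a3 (1.71) and Rims3 (1.71). In all of these the 6 irradiated libraries lay above the 3 non-irradiated ones, which the naming rule required. Raver2 did not exceed 0.7295 CPM in any control or IL-4 state library. It passed the filter on low values through the irradiated LPS-state libraries, where it was high, so its p-value is no independent evidence. Among the lowest that belong to no lineage list named above, Ly6a (Sca-1, an interferon-responsive surface protein) fell by 3.06, to 64.41 CPM (26.06 to 83.71) against 496.8, 415.6 and 495.1 CPM.

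FLASH and standard libraries were also set against the same 3 non-irradiated libraries one arm at a time. FLASH gave 322 genes higher (2.42%) and 630 lower (4.74%), 952 in all (7.16%), and standard gave 451 higher (3.39%) and 705 lower (5.3%), 1156 in all (8.69%). These counts were 496 without FLASH M1 replicate 3 and 614 without standard M1 replicate 3. Cdkn1a rose by 1.38 in FLASH and 1.48 in standard libraries, and Gzmb fell by 5.68 in FLASH and 5.21 in standard libraries. Compared directly, FLASH over standard gave no gene past the limma threshold (0%), and 395 genes at an unadjusted p below 0.05. The difference of FLASH minus standard was -0.10 ± 0.13 (SE) for Cdkn1a. A gene short of the threshold is not shown to be alike in both arms.

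The effect of irradiation in the LPS state was then compared with that in the other states, with the 27 libraries in 6 groups and the irradiated states set by the same 2 genes. In the control state 906 genes were higher (6.81%) and 1134 lower (8.53%), 15.3% in all, and in the IL-4 state 994 were higher (7.48%) and 874 lower (6.57%), 14.1% in all. The effect differed between the LPS and the control state in 846 genes (6.36%), 459 with a higher (3.45%) and 387 with a lower (2.91%) log2 effect under LPS. It differed between the LPS and the IL-4 state in 1525 genes (11.5%), 687 higher (5.17%) and 838 lower (6.3%) under LPS. The count of 846 was 488 without non-irradiated M1 replicate 3, and 454 where label and values concur in all libraries used. The count of 1525 was 727 where they concur.

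Cdkn1a and Phlda3 rose in all 3 states. Cdkn1a rose by 1.43 in the LPS state, 1.53 in the control state and 1.13 in the IL-4 state, and neither difference from the LPS state passed (limma adjusted p = 0.8117 against control and 0.3254 against IL-4). Phlda3 rose by 2.27, 2.31 and 1.61 in the same states, and the difference of 0.66 between the LPS and the IL-4 state passed (limma adjusted p = 0.007697). Of the 37 p53 targets, 12 rose and 2 fell in the control state, against 6.81% and 8.53% of all genes. In the IL-4 state 14 rose, against 7.48% of all genes, and none fell.

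Gzmb was at its highest in non-irradiated LPS libraries. In the control state it had 0.23 to 1.121 CPM in irradiated libraries and 0.261 to 0.7079 CPM in non-irradiated ones, against the 31.1 to 42.69 CPM of non-irradiated LPS libraries. In the IL-4 state it had 0.1186 to 0.856 CPM in irradiated libraries and 2.069 to 14.16 CPM in non-irradiated ones. The log2 effect in the LPS state was lower by 5.61 than in the control state (limma adjusted p = 5.605e-07) and lower by 2.86 than in the IL-4 state (limma adjusted p = 0.001239). Of the 20 cytotoxic markers, 9 differed in that direction from the control state, as did 2.91% of all genes. From the IL-4 state 9 differed so, against 6.3% of all genes. Of the 20, 11 passed the filter only with non-irradiated libraries counted, Gzmb among them. These counts and p-values therefore describe the members and support nothing further.

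**Figure D5:**
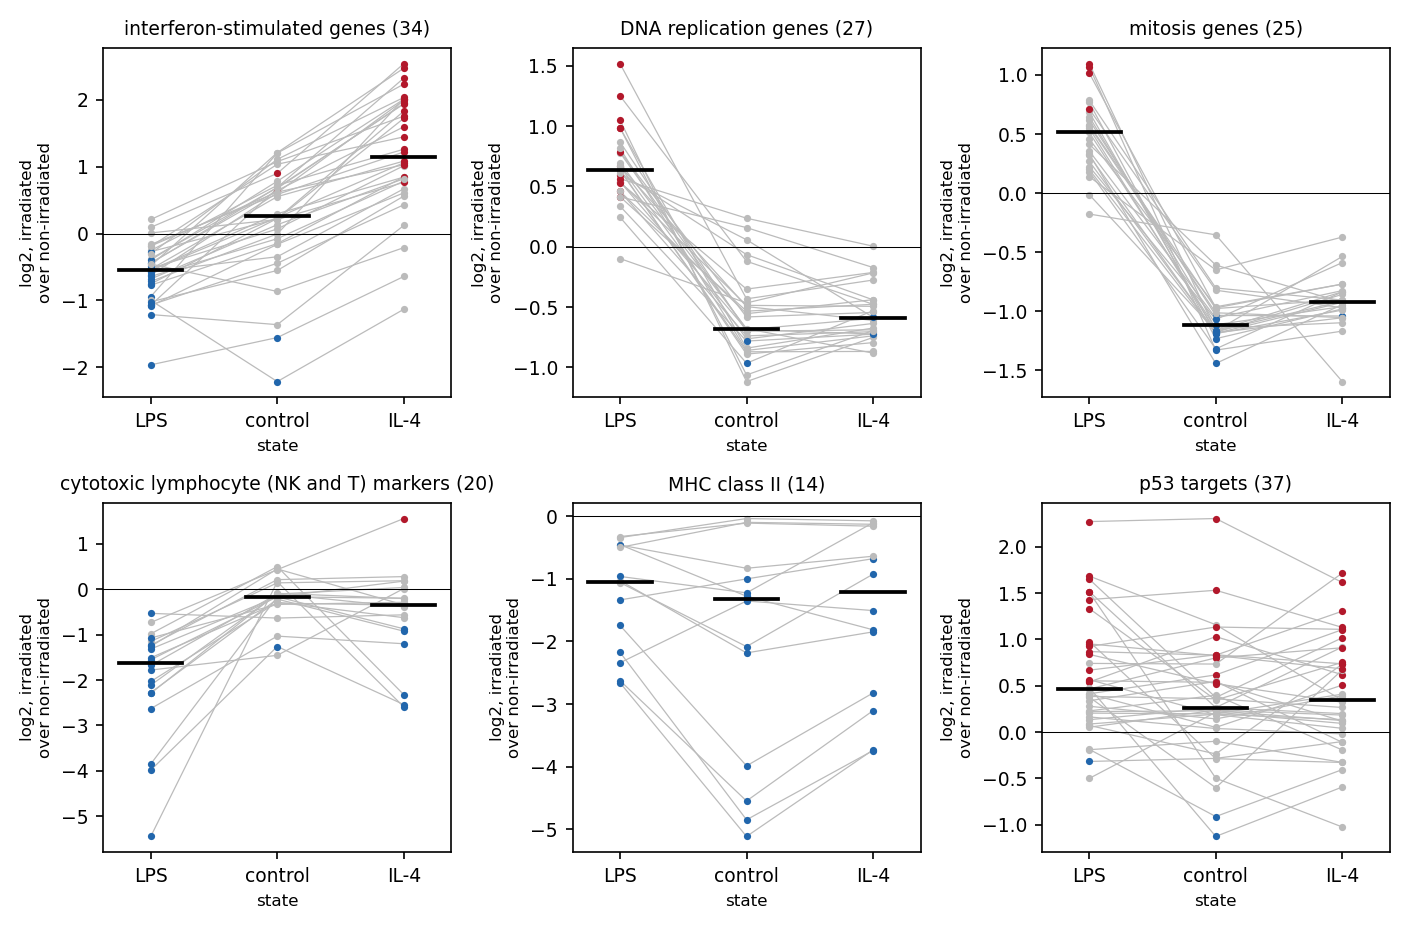
Log2 fold change, irradiated over non-irradiated, in the LPS, control and IL-4 states for the tested members of 6 gene lists (grey lines join a gene, red and blue points are called higher and lower, black bars are medians). The LPS values come from the 9 libraries and the others from the fit of 27 libraries; the median of the interferon-stimulated genes is -0.54 in the LPS state and 1.15 in the IL-4 state.

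Interferon-stimulated genes went opposite ways in the LPS and the IL-4 state. In the IL-4 state 22 of 34 rose, against 7.48% of all genes, and none fell, with a median of 1.15. In the control state 2 rose and 2 fell, against 6.81% and 8.53% of all genes. The effect was lower in the LPS than in the IL-4 state for 24 members, against 6.3% of all genes, and higher for none. Rsad2 in the IL-4 state had 104.7 to 371.5 CPM in irradiated libraries against 19.73 to 72.97 CPM in non-irradiated libraries, far below its level under LPS, and rose there by 2.23. Its effect was lower by 3.18 in the LPS than in the IL-4 state (limma adjusted p = 0.001286). Cmpk2, a mitochondrial nucleotide kinase induced by interferon, showed a difference of -3.02 (limma adjusted p = 0.001297).

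Cell cycle genes differed by state as well. In the control state 14 of 25 mitosis genes fell, against 8.53% of all genes, and none rose, with a median of -1.11. In the IL-4 state 2 of the 25 fell, against 6.57% of all genes. The effect was higher in the LPS than in the control state for 9 mitosis genes and 6 replication genes, against 3.45% of all genes. It was higher than in the IL-4 state for 8 and 7, against 5.17% of all genes. Mki67 in the control state had 16.47 to 28.87 CPM in irradiated libraries against 46.54 to 70.42 CPM in non-irradiated ones. Its effect was higher by 1.77 in the LPS than in the control state (limma adjusted p = 0.03113). Non-irradiated LPS libraries, at 27.03 to 29.98 CPM, were themselves below the non-irradiated control libraries.

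Of the 14 class II genes 10 fell in the control state and 9 in the IL-4 state, against 8.53% and 6.57% of all genes. H2-Aa had 10.36 to 22.22 CPM in irradiated control-state libraries against 386.8 to 794.5 CPM in non-irradiated ones, and fell there by 5.11. Its effect under LPS was higher by 2.45 than in the control state (limma adjusted p = 0.001321). Tnf, at 6.471 to 9.426 CPM in irradiated and 6.568 to 12.63 CPM in non-irradiated control-state libraries, had an effect higher by 1.15 under LPS (limma adjusted p = 0.01562). Of the lysosome and phagocytosis genes 19 rose in the control and 22 in the IL-4 state, against 6.81% and 7.48% of all genes. Their effect under LPS was lower than in the control state for 12 members, against 2.91% of all genes. It was lower than in the IL-4 state for 16 members, against 6.3% of all genes.

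Grouping by labels alone gave the fewest calls of the alternatives tried. The 6 irradiated libraries labelled M1 then include replicate 1 of both arms, in which Irg1 was 14.87 CPM (FLASH) and 22.26 CPM (standard) and Tnf was 8.062 and 5.407 CPM. With labels alone 97 genes were higher (0.73%) and 244 lower (1.84%), 341 in all (2.56%), and 69 without non-irradiated replicate 1. Of these, 332 were called in the same direction by the comparison of 6 with 3 chosen by value, which is 97.4% of the 341 and 17.7% of the 1880. Of the 1880 genes, 53 had the opposite sign with labels alone.

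What stayed and what went can be read from named genes. With labels alone Cdkn1a still rose by 1.38 (limma adjusted p = 0.002885), Phlda3 by 2.52 (limma adjusted p = 0.000623), and Gzmb still fell by 5.34 (limma adjusted p = 7.1e-05). Interferon-stimulated genes, of which 22 fell by value, had none called with labels alone, although their median went to -1.45. Tnf turned to -0.55 (limma adjusted p = 0.8389), Il1b to -1.45 (limma adjusted p = 0.6146) and Cxcl9 to -0.30 (limma adjusted p = 0.9264). H2-Aa kept its direction but not its call (-2.33, limma adjusted p = 0.07891). None of the 14 replication genes called by value was called, and of the p53 targets 7 rose. Of the 20 cytotoxic markers 10 fell with labels alone, and of the 11 B lineage markers 8 fell, against 1.84% of all genes. In these lists 11 and 5 members passed the filter on low values only with non-irradiated libraries counted, Gzmb among the 11. The counts and the p-value of Gzmb therefore describe the members and support nothing further.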

How the data were processed

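Bulk RNA-seq of 27 libraries was read from 1 table of linear signal per gene, which the authors deposited as normalised CPM. Kallisto 0.46.1, R 4.0.5 and edgeR 3.36.0 are named in the submitters' processing notes, which give GRCh38, a human build, so no coordinates were taken from the table. Whole reads could not be recovered from the values, so no count model was used. Genes that reached 1 CPM in 3 or more libraries of the series entered the test, without Irg1 and Arg1, on log2(CPM + 0.5) with limma 3.58.1 (R 4.3.3, trended and robust moderation) and Benjamini-Hochberg adjustment. State differences came from 1 fit of the 27 libraries in 6 groups. Named genes were the 12 highest and 12 lowest called fold changes without overlap that were also called where label and values concur (5 CPM or more on average in one group, no predicted genes), from every list at most 3 called members each way by smallest p (or the member of smallest p), the 5 highest and 5 lowest of each state difference, and a fixed set that includes Cdkn1a and Gzmb. The rule also picked 2 genes whose own values are not reported here. The members, lists and motifs were chosen with earlier results of these data known. One entry without a symbol was left out, at 0.004802% to 0.007987% of a library. Depth limits precision for genes near 0. Alternatives were the pseudocount, filter, scaling, moderation, fit, replicate block, labels and each library left out.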

Additional observations from a re-analysis of the deposited data

Results flagged for a closer look

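In 13 of 147 named genes 1 of the 6 irradiated libraries stood far from the other 5, where chance flags about 1 group in 20. FLASH M1 replicate 3 was the high library for 7 of them, with Ctsg at 0.6855, H2-DMb2 at 0.1613, Mcpt8 at 0.242, Mmp13 at 40, Mpo at 4.879, mt-Nd1 at 477.5 and Ppbp at 4.516 CPM. The FLASH library labelled M2 replicate 1 was high for Ighm (18.49 CPM), Thy1 (9.555 CPM) and Tusc3 (8.724 CPM) and low for Hmox1 (1321 CPM). Standard M1 replicate 3 was low for Fcgr1 (693.7 CPM), and the standard library labelled M2 replicate 1 was high for Runx2 (4.041 CPM).

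The irradiation effect differed between the LPS and the control state in 846 genes by limma. Among named genes the log2 effect was higher under LPS for Lcn2 (4.38), Cxcl9 (3.521), Emr4 (3.31), Vsig8 (3.306) and Antxr1 (3.101). It was lower for Gzmb (-5.613), Tusc3 (-5.111), Gzmc (-3.683), Il2rb (-2.724) and Pou3f1 (-2.483). In the LPS state the groups overlapped for Lcn2, Emr4 and Antxr1. In the control state their irradiated libraries lay below the non-irradiated ones. Lcn2 had 1.726 to 6.199 against 16.88 to 148.5 CPM there, and Emr4 had 1.657 to 11.83 against 21.02 to 58.42 CPM. Antxr1 had 0.4601 to 4.853 against 7.638 to 12.66 CPM. Vsig8 was also lower there, at 4.105 to 11.5 against 19.19 to 30.11 CPM.

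The effect differed between the LPS and the IL-4 state in 1525 genes. It was higher under LPS for Gfra2 (3.135), Ccl24 (2.764), Tmc3 (2.678), Raver2 (2.573) and Gtse1 (2.536). Gfra2 and Ccl24 were near 0 in the LPS state, and Ccl24 passed the filter through the IL-4 state. Gfra2 had 0.6198 to 2.004 CPM in irradiated and 0.5393 to 0.7914 CPM in non-irradiated LPS libraries, and 0.4505 to 3.993 CPM in irradiated and 10.44 to 14.3 CPM in non-irradiated IL-4 libraries. Ccl24 had 0.2066 to 0.7893 CPM in irradiated and 0.3394 to 0.6052 CPM in non-irradiated LPS libraries, and 1.542 to 7.092 CPM in irradiated and 24.19 to 30.62 CPM in non-irradiated IL-4 libraries. Their differences rest on the IL-4 libraries. The effect was lower under LPS for Tusc3 (-4.875), Tsc2 (-3.589), Rsad2 (-3.176), Ly6a (-3.029) and Cmpk2 (-3.017). Tusc3 ranged from 3.649e-07 to 8.724 CPM in irradiated and from 11.96 to 25.3 CPM in non-irradiated LPS libraries. It did not exceed 0.003294 CPM in non-irradiated control or 0.001552 CPM in non-irradiated IL-4 libraries. Tsc2 overlapped in the LPS state (0.6054 to 15.83 against 1.74 to 12.72 CPM). In non-irradiated IL-4 libraries it ranged from 5.484e-08 to 4.169 CPM.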

How the results depend on the processing

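The count of 1880 stayed between 1547 and 1928 over the pseudocounts, filters, scaling, moderation, replicate block and fits tried, was 1297 where label and values concur and 341 with labels alone, and was 1125 to 1785 with 1 library left out. The titles give each replicate number a code shared by all arms and do not say what it marks. Over all genes the numbers gave no pairing by the limit set (r of same-numbered deviations -0.207 to 0.137, 1 of 9 over 0.1, the 1 being replicate 2 of FLASH and standard), and with the replicate block 1703 genes were called, 614 with labels alone and 763 where label and values concur. With 1 library left out the counts ran from 496 to 935 for FLASH, 614 to 1070 for standard, 0 to 4 for FLASH over standard, 69 to 411 for labels alone, 755 to 1137 where label and values concur, 488 to 963 for LPS against control and 1070 to 1567 for LPS against IL-4. These last 2 counts were 454 and 727 where label and values concur, and 68 and 563 with labels alone for all 27 libraries, an alternative added after seeing the data. With labels alone 46 of the 135 called named genes kept direction and call, 82 lost the call and 7 changed sign; with 6 of the 12 uncalled ones, 13 changed sign: Ccl24 (0.063), Cd300e (-0.157), Cd55 (-0.278), Cxcl9 (-0.304), Emr4 (-0.684), Il1b (-1.445), Lcn2 (-1.293), Mki67 (-0.102), Mmp13 (0.338), Nfkbiz (-0.587), Ptges (-0.467), Tnf (-0.547) and Tsc2 (0.178). With 1 library left out Ccl24 ran from -0.184 to 0.017, Emr4 from -0.024 to 1.074 and Tsc2 from -1.186 to 0.095. The cause was not tested. The planned edgeR alternative was not run, because whole reads could not be recovered. Genes near 0 are limited by depth.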
